A study of Drosophila melanogaster with 2 samples.

Results

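Chromatin immunoprecipitation with sequencing (ChIP-seq) of the CG1024 gene product placed 382 peak summits just upstream of a single protein-coding gene, and these summits are described here. The protein, profiled as a transcription factor per the labels, was fused to enhanced green fluorescent protein (eGFP) and precipitated from whole Drosophila melanogaster embryos, aged 0 to 24 h, with an antibody against GFP. The summits came from the conservative peak list made from both replicates together, on genome build dm6. A summit was kept when it lay 1 to 100 bp upstream of the nearest protein-coding transcription start. It was left out when a gene on the opposite strand also started within 500 bp in the divergent direction. The 382 summits are 11.2% of the 3397 summits on the 7 chromosomes analysed (95% Wilson interval 10.2 to 12.4) and 24.7% of the 1547 that lay within 500 bp of a protein-coding start. They belong to 376 genes.

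The study had 1 group, embryos of 1 transgenic strain carrying the CG1024-eGFP insertion, with 2 biological replicates and no second condition. Whole embryos mix all cell types and stages of that day, so a peak shows enrichment in the mixture and not in which cells it arose. The replicates had 2599 and 2291 thresholded peaks of their own. The files hold peaks and no read counts, so depth is unknown. With no second condition, no p-value is given. Intervals cover the counting of regions only, and regions are not biological replicates.

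The bases just upstream of a start form the core and proximal promoter, where RNA polymerase II and the general factors assemble. In Drosophila, genes active in most cells often have promoters with the DNA replication-related element (DRE, bound by Dref and overlapping the core of BEAF-32 sites), the M1BP motif or the elements named Ohler 6 and Ohler 7. Genes with restricted activity more often have a TATA box or GAGA repeats. Genes near the centromeres and on the small chromosome 4 lie in or beside heterochromatin, which is rich in transposable elements, and many of them are nevertheless active.

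The upstream sequences of the strongest peaks differ in which of 2 short words, CACTG and CGATA, they hold. The 100 bases before the start (positions -100 to -1, 5′ to 3′ on the gene's strand, build dm6, from the RefSeq Release 6 assembly) are given for selected members of high signal whose window holds no annotated exon. The choice did not cover every arm, so some stronger members away from the centromeres are not shown. Capitals mark CACTG and CGATA on either strand, so that they also mark CAGTG and TATCG. These 4 windows lie near a centromere or on chromosome 4: MED21 (chr3L:25115947-25116046, minus strand), CG40045 (chr3L:24028415-24028514, plus strand), Dbp80 (chr3L:27279216-27279315, plus strand) and Gyf (chr4:867026-867125, minus strand).
MED21: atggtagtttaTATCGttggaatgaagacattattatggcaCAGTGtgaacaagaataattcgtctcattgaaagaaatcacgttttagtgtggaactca
CG40045: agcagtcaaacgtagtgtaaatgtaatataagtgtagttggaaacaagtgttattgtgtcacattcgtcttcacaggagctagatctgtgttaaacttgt
Dbp80: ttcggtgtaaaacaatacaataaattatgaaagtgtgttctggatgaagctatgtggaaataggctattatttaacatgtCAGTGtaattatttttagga
Gyf: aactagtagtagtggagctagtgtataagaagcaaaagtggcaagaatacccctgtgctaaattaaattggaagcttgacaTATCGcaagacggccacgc
MED21, a Mediator subunit gene, has both words, Dbp80, a DEAD-box RNA helicase gene, has CAGTG alone, Gyf has TATCG alone, and CG40045 has neither. The peak at CG40045 was nevertheless the second strongest, with a signal of 1554 and its summit 61 bp upstream.

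Away from the centromeres, strong peaks again came with and without the words. The windows are Ugalt (chrX:2703853-2703952, minus strand), a UDP-galactose transporter gene, CG14100 (chr3L:19590525-19590624, minus strand), RpS27A (chr2L:10408252-10408351, plus strand), which encodes a ubiquitin-ribosomal protein fusion, and da (chr2L:10388005-10388104, plus strand), the bHLH factor daughterless.
Ugalt: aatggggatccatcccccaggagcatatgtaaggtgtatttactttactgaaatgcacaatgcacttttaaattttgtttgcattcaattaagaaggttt
CG14100: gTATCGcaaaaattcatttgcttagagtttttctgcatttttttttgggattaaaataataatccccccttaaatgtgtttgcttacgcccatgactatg
RpS27A: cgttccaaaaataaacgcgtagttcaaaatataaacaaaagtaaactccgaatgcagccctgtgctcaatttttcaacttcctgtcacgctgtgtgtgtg
da: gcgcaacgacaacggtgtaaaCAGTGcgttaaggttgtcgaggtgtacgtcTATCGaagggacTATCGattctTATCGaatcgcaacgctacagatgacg
Ugalt and RpS27A have neither word. The da window has CAGTG from position -79 and TATCG from positions -49, -37 and -27. CG14100 has TATCG from position -99, next to its summit at -95.

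The next windows show members farther than 6 Mb from a centromere-proximal arm end that hold both words, with CACTG or CAGTG upstream and CGATA between it and the gene: CG5708 (chr2L:10226809-10226908, minus strand), Cdc27 (chr3L:7249341-7249440, minus strand), an anaphase-promoting complex gene, and yps (chr3L:12125151-12125250, minus strand), a Y-box protein gene. The last pair carry the complete DRE: eIF4B (chr3L:27858272-27858371, minus strand), a translation initiation factor gene, and Hcf (chr4:359838-359937, plus strand), the host cell factor gene.
CG5708: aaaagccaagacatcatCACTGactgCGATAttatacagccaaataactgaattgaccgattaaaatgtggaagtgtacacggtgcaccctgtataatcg
Cdc27: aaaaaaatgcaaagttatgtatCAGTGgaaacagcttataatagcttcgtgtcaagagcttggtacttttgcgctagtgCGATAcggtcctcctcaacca
yps: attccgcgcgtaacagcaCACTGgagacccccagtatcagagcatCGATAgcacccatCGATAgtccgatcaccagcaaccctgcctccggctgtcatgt
eIF4B: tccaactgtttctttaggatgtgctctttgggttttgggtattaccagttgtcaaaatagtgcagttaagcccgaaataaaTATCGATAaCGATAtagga
Hcf: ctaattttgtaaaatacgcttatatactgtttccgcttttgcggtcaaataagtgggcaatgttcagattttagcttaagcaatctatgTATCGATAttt
CACTG begins at -83 in CG5708 and at -82 in yps, and CAGTG at -78 in Cdc27. The summits lie at -48 in CG5708, -56 in Cdc27 and -31 in yps, between the word and the start. In eIF4B the summit at -52 lies upstream of the DRE.

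The summits were most frequent between 21 and 80 bp upstream of the start. Counted in steps of 20 bp from the start, the members numbered 49, 84, 87, 93 and 69. The next step upstream, outside the window, held 57 single-gene summits, and the 20 bp from the start downward held 61. The median distance was 53 bp (order-statistic interval 50 to 59, quartiles 32 and 75). Signal, the authors' value for each peak with no stated scale, was lowest next to the start. Its median in the same steps was 90.7, 115, 167, 183 and 144. Near a centromere or on chromosome 4, a division described with the signals, it was 302, 305, 492, 762 and 534, and farther out it was 78.8, 90, 103, 114 and 118. Farther out the 20 bp next to the start had the lowest median. Near a centromere or on chromosome 4 that step, with 15 summits, and the next, with 31, had nearly equal medians. Their quartiles were 102 and 735, and 135 and 767.

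**Figure D1:**
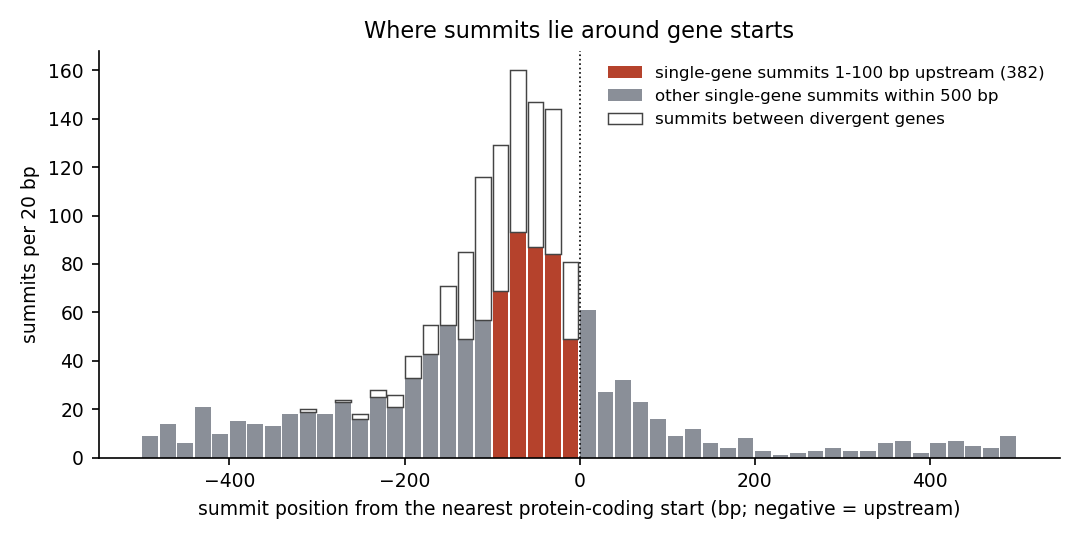
Number of peak summits per 20 bp (vertical axis) by position from the nearest protein-coding start in bp (horizontal axis, negative upstream), with the 382 single-gene summits 1-100 bp upstream in red, other single-gene summits in grey and summits between divergent genes as open bars on top. The red bars peak at 93 summits, 61 to 80 bp upstream, and the counts drop on both sides.

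The members named at 1 and 2 bp from a start had signals below the members' median of 137. Atxn7 and Mef2, a muscle differentiation factor gene, lay at 1 bp with signals of 59 and 70.7, and drn and CG3764 at 2 bp with 58.4 and 109. The first 3 overlapped a thresholded peak of neither replicate, and CG3764 one of replicate 1 alone. The own summits of replicates 1 and 2 lay 43 and 10 bp upstream at Atxn7, 13 and 5 bp at drn and 33 and 43 bp at CG3764. At Mef2 both lay downstream of the start. At 6 and 7 bp, RpL21 and CG41099, named after their values were seen, had 753 and 767. At the far edge, 100 bp upstream, Adck1 had 388, the neuronal gene Snap25 had 133 and the corepressor gene gro had 108. At gro the replicates' own summits lay outside the window, 136 and 115 bp upstream. At the first base outside the window, Taf4 had 58.9, CG42724 had 68.4 and chif had 86.9.

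Most member summits lay between genes. Of the 382, 294 (77%) lay in no protein-coding gene, 68 (17.8%) within their own gene downstream of another of its starts, and 20 (5.24%) within the body of another gene. For 6 members a second gene started at the same distance. Their genes were longer than most, with a median of 3902 bp against 2164 bp over all 13968 protein-coding genes, and 56.9% of them had 1 annotated start against 73.5%. The median length near a centromere or on chromosome 4 was 5353 bp for member genes and 2497 bp for all genes, and farther out 3508 bp and 2137 bp. CkIIalpha, Sur-8, d4, gus, gw and rl each had 2 member summits at different starts. At gw, which encodes the miRNA silencing factor GW182, the signals were 96 and 806, and at gus 909 and 1124, so a gene's starts could differ widely or be alike.

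Peak signal divided the members by chromosomal location. Of the 382, 144 (37.7%, 33 to 42.7) lay within 6 Mb of the centromere-proximal end of an assembled arm or on chromosome 4, against 14.9% (13.7 to 16.2) of the 3015 other summits. These 144 had a median signal of 505 (interval 391 to 674), against 100 (94.3 to 107) for the 449 other summits there. Farther out, 238 members had a median of 99.8 (92.8 to 111), against 86.5 (83.9 to 89) for the 2566 other summits. Of those others, 428 single-gene summits more than 100 bp and up to 500 bp upstream had 99.7 (93.7 to 111), like the members. The 387 between divergent genes had 95.9 (86.5 to 103). Lower medians were those of 140 in the first 100 bp downstream (71.4), 88 farther downstream (73.3) and 1523 over 500 bp away (83.2). The 6 Mb limit was set after the signals had been seen. Each replicate showed the same division. In replicate 1 the medians near the centromeres were 232 for members and 49.7 for the others. In replicate 2 they were 290 and 50.6. Farther out they were 55.3 and 44.7 in replicate 1, and 49.7 and 42.5 in replicate 2.

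Signals over 500 were concentrated at these promoters. That level was exceeded by 72 of the 144 members near a centromere or on chromosome 4 (50%, Wilson interval 41.9 to 58.1) and 19 of the 449 other summits there (4.23%, 2.73 to 6.51). Farther out it was exceeded by 5 of 238 members (2.1%, 0.901 to 4.82) and 32 of 2566 other summits (1.25%, 0.885 to 1.76). Over all summits the share was 3.77%. The median member stood at percentile 73.4 of signal among all summits (67.2 to 77.1). Members made up 41 of the 50 strongest summits of the conservative list and 71 of the 100 strongest, but 28% of the 500 strongest.

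**Figure D2:**
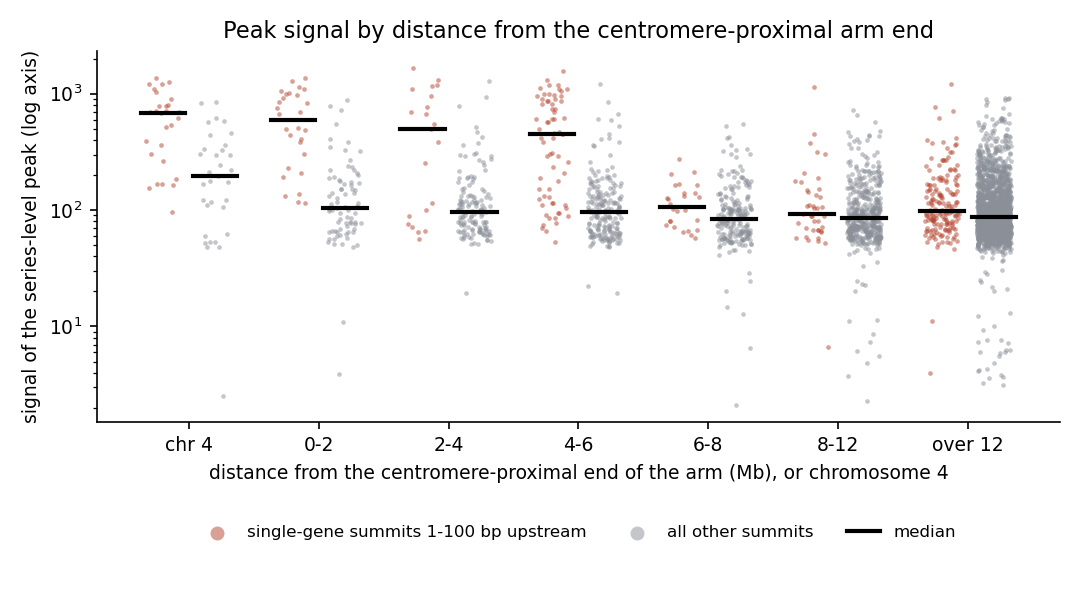
Signal of each conservative peak (vertical log axis) for chromosome 4 and by distance in Mb from the centromere-proximal arm end (horizontal axis), with single-gene summits 1-100 bp upstream in red, all other summits in grey and a black line at each median. The red medians are 687 on chromosome 4, 593, 494 and 449 in the first 3 steps of 2 Mb, and 107, 92.8 and 98.8 beyond 6 Mb.

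The arms differed in how far the high signals reached. On 3L the 24 members within 6 Mb had a median of 976, on 2R 43 had 603, and on 2L 24 had 212. The 28 of chromosome 4 had 687. On 3R the 19 had a median of 130, and their medians by step were 717 at 3 to 4 Mb from the end, 152 at 4 to 5 Mb and 85.3 at 5 to 6 Mb. On X the 6 members near the centromere had signals of 65 to 133. On 2L the medians were 836 in the last Mb and 396 in the one before it, and no member 2 to 5 Mb from the end exceeded 187. The Y chromosome had no member.

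Within 6 Mb of an arm end summits in other positions had lower medians than the members, and on chromosome 4 every position within 500 bp of a start had a median of 332 or more. Over these regions together, the median of 51 single-gene summits more than 100 bp and up to 500 bp upstream had an interval of 81.5 to 147. The medians were 95.2 for 36 between divergent genes, 132 for 19 in the first 100 bp downstream and 99.4 for 327 over 500 bp from any start. The interval for the summits just downstream, 77.6 to 348, is wide. On chromosome 4 alone the 28 members had a median of 687. There 7 summits farther upstream, up to 500 bp, had 332 and 3 between divergent genes had 826, above the members. The 2 in the first 100 bp downstream had 461, 1 farther downstream had 457 and 20 over 500 bp away had 119.

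Near a centromere or on chromosome 4, the members' median signal rose with the coverage of annotated transposable elements. They covered a median of 15.3% of the bases within 25 kb of the members near a centromere or on chromosome 4 (quartiles 5.46 and 43.7), against 7.43% around the other summits there. Among these members the median signal was 114 for 21 with a coverage up to 2%, 305 for 27 up to 10%, 519 for 53 up to 30% and 733 for 43 above that. Over the same steps the other summits had medians of 93.7, 108, 112 and 104. Dbp80, Alg-2 and RpL15, with signals of 1370, 1153 and 1146, had no annotated element within that distance, and neither had Lar with 56.2. These 4 were picked after their values were seen. Farther out, 17 members with a coverage of 10 to 30% had a median of 86.8, and 205 with up to 2% had 102. Across the arms within 6 Mb, the order differed in part. Members on 3L, with the highest median signal, had a median coverage of 13.6%, below the 44% on 2R and 20.9% on chromosome 4. Those on 2L, 3R and X, with the lowest median signals, had 6.95%, 8.12% and 4.33%. Coverage was not separated from location along the arms. The part of repeats, and of reads that map to several copies, in these signals was not tested.

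The strongest members stood high in both replicates. MED21 reached 765 in replicate 1 and 909 in replicate 2. CG40045 reached 648 and 895, Dbp80 645 and 727, Gyf 654 and 718, and the complex I subunit gene ND-AGGG 538 and 789. On chromosome 4, anne had 604 and 654, RpS3A 617 and 602 and the plexin receptor gene PlexB 583 and 644. UQCR-11, a complex III subunit gene, had 540 and 658. Of the 15 strongest members, 14 lay near a centromere or on chromosome 4. The exception was Ugalt on X, with 650 and 568.

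Outside those regions the strongest members after Ugalt were spread over the arms. CG14100 on 3L stood at 1132, with 565 in replicate 1 and 574 in replicate 2. PNPase on 3R, which encodes polynucleotide phosphorylase, had 764. eEF5 and eEF1alpha1 on 2R, both translation elongation factor genes, had 715 and 448, and RpS27A and da on 2L had 621 and 420. TRAM on X had 401. Each of these overlapped a thresholded peak of both replicates. The upper quartile of the 238 members farther out was 160.

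Members were found in both replicates more often than other summits. Of the 382, 265 (69.4%, Wilson interval 64.6 to 73.8) overlapped a thresholded peak of each replicate by at least 1 bp, against 46% (44.2 to 47.8) of the 3015 other summits. Over all conservative peaks the share was 48.6%. A further 43 overlapped one of replicate 1 alone, 25 of replicate 2 alone and 49 of neither. Near a centromere or on chromosome 4 the members' share was 89.6% (83.5 to 93.6) and farther out 57.1% (50.8 to 63.3). The other summits of these regions had 51.4% (46.8 to 56) and 45% (43.1 to 46.9). Near a centromere or on chromosome 4, the 19 summits in the first 100 bp downstream had 78.9% (56.7 to 91.5), an interval that overlaps that of the members. There single-gene summits more than 100 bp and up to 500 bp upstream had 52.9%, and those between divergent genes 50%. Farther out, single-gene summits more than 100 bp and up to 500 bp upstream had 58.9% (54.2 to 63.4), and those between divergent genes 50.6% (45.7 to 55.6). Among the 266 members with a signal above the median of the conservative list, the share in both replicates was 91.7%. The part of signal in these shares was not tested. Across the 379 members with a peak in each ranked list, the 2 signals had a Spearman correlation of 0.907, which is given as a description. The peaks were themselves selected for reproducibility, and the lists of both replicates draw on 1 shared further file.

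The distance between the replicates' summits had a median of 14 bp (quartiles 6 and 27.5), against 19 bp (6 and 41) for the other summits. It was 11 bp for members near a centromere or on chromosome 4 and 18 bp farther out. The log2 ratio of replicate 1 to replicate 2 had a median of -0.19 near a centromere or on chromosome 4 and of 0.17 farther out. The other summits of the same regions had -0.07 and 0.07. Peaks of members near a centromere or on chromosome 4 had a median width of 267 bp, with widths on both sides of the commonest, 280 bp. The strongest, MED21 and CG40045, had 320 and 300 bp. Of the members in this region, 27.8% had a width of 280 bp, against 80.2% of the other summits there. Farther out 82.8% of members and 86.9% of the others had it.

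**Figure D3:**
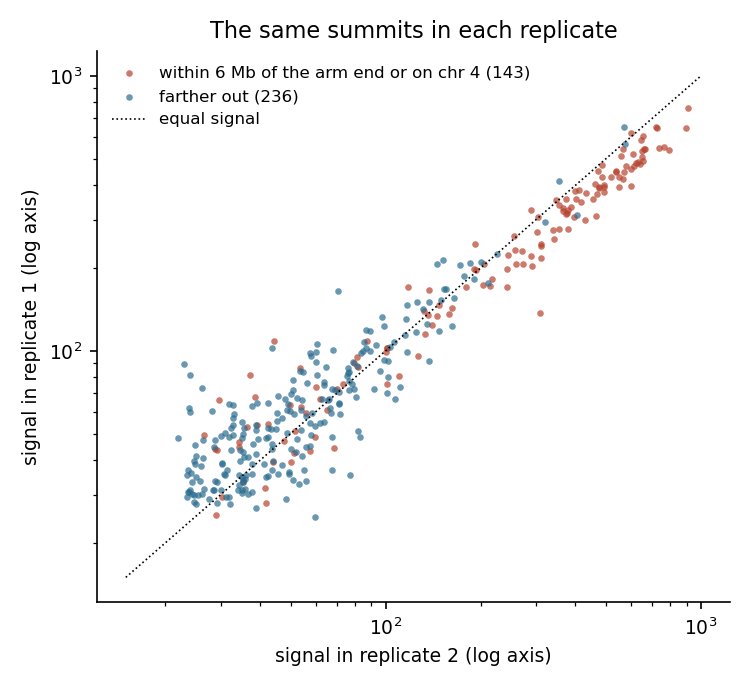
Signal of each of 379 members in replicate 1 (vertical log axis) and in replicate 2 (horizontal log axis), near a centromere or on chromosome 4 (143, red) and farther out (236, blue), with a dotted line of equal signal. Most of the strongest red points lie just below the line, and the scatter widens among the weak peaks at the lower left.

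A few members differed between the replicates. The lowest log2 ratios were -1.26 at Rap1, a small GTPase gene, -1.17 at rl, the ERK kinase gene, and -1.13 at Nhe3. They were followed by Chd3 with -0.87 and CG15771 with -0.77. At this rl summit, 33 bp upstream, the signals were 137 in replicate 1 and 309 in replicate 2. The highest were 1.96 at CG5254, 1.77 at CG3764, 1.49 at Sik3, 1.38 at hpo, the Hippo kinase gene, and 1.33 at stops. Those 5 overlapped a thresholded peak of replicate 1 alone. Df31, Unr and RpL27 had signals of 76.7, 65.7 and 62.8 in replicate 1 and no listed peak in replicate 2. At the weakest 3 members, CG12075, Sobp and Apoltp, the series-level signals were 11.1, 6.66 and 4.02. At Apoltp the replicates' own overlapping peaks had 47.7 and 52.4, with their summits 193 and 186 bp upstream of the start.

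Members farther out carried the word CACTG more often than other promoters of that region did. It was searched on both strands in the 100 bases before the start, and 99 of 238 members farther out had it (41.6%, Wilson interval 35.5 to 47.9). Among 10819 genes there with no summit within 500 bp, 19.9% had it (19.2 to 20.7). Near a centromere or on chromosome 4, 32 of 144 members had it (22.2%, 16.2 to 29.7) against 18% (16 to 20.2) of 1239 genes. In that region the intervals overlap, and farther out they do not. The word had been seen in earlier results of these data, so the comparison is a description and not a test. Over all members the share was 34.3%, and over all 13967 promoters it was 20.8%.

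The word CGATA, the core shared by the DRE and BEAF-32 sites, was more frequent in both regions. It was present in 104 of 238 members farther out (43.7%, 37.5 to 50) against 26.7% (25.9 to 27.5) of genes with no summit, and in 51 of 144 near a centromere or on chromosome 4 (35.4%, 28.1 to 43.5) against 26.4% (24 to 28.9), where the intervals just overlap. Over all members the share was 40.6%, against 27.7% of all promoters. The complete DRE TATCGATA, which contains CGATA, was present in 11.5% of members (8.69 to 15.1) and 5.94% of all promoters. Farther out its shares were 13.4% of members and 5.38% of genes with no summit, and near a centromere or on chromosome 4 8.33% and 6.94%.

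TATA boxes and GAGA repeats were less frequent over all members, each with a clear gap in 1 region. The TATA box TATAAA was found in 14.9% of members (11.7 to 18.8) and in 20% of all promoters. Farther out the shares were 13% of members (9.33 to 17.9) and 21% of genes with no summit (20.3 to 21.8). Those near a centromere or on chromosome 4 were 18.1% (12.6 to 25.1) and 19.9% (17.8 to 22.3), with overlapping intervals. GAGAG was found in 8.12% of members (5.78 to 11.3) and in 13.5% of all promoters. GAGAG was in 4.86% of members (2.37 to 9.69) and 15% of genes with no summit (13.1 to 17.1) near a centromere or on chromosome 4. Farther out it was in 10.1% (6.87 to 14.6) and 13.4% (12.8 to 14.1), with overlapping intervals. The E-box CAGCTG was in 2 of 144 members near a centromere or on chromosome 4 (1.39%, 0.382 to 4.92) and in 10.5% (7.22 to 15) farther out, against 6.3% and 7.26% of genes with no summit. Over all members it was in 7.07%, against 7.51% of all promoters. The M1BP motif GGTCACACT was in 2.88% of members and 2.13% of all promoters, Ohler 7 in 6.81% and 4.37%, Ohler 6 in 1.31% and 1.83%, the initiator core TCAGT in 18.8% and 20.8%, and the CTCF motif AGNNGGCGC in 1.05% and 1.22%. CAGGTAG, bound by the early embryonic factor Zelda, was in 0 of 382 windows, which allows up to 0.996% by the Wilson interval, and in 0.659% of all promoters.

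**Figure D4:**
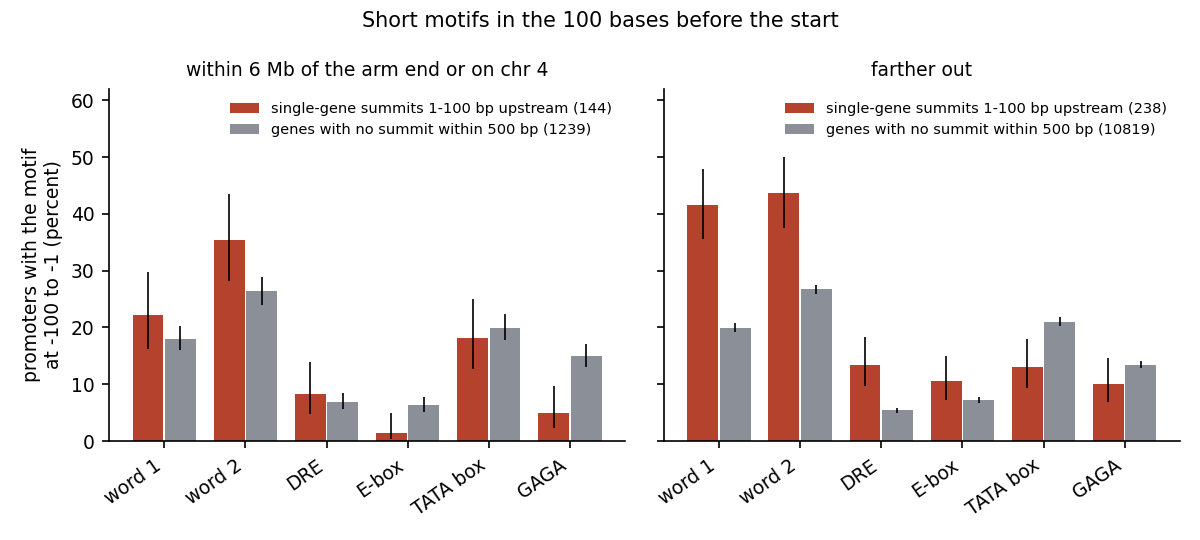
Percent of promoters with each motif in the 100 bases before the start (vertical axis, bars from 0 with 95% Wilson intervals), for members (red) and genes with no summit within 500 bp (grey), near a centromere or on chromosome 4 (left) and farther out (right). Word 1 is CACTG and word 2 is CGATA; on the right both red bars, at 41.6% and 43.7%, stand clear of the grey ones at 19.9% and 26.7%.

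Over all members, both words were found within 50 bp of the summit more often than at all other summits together. Within 50 bp of the summit, 33.8% of members had CACTG (29.2 to 38.7), against 24% (22.5 to 25.6) of the other summits and 25.1% of all. With a window of 25 bp the members' share was 19.4% and with 100 bp 49.2%. Farther out the share was 39.1% of members and 24.1% of other summits, and near a centromere or on chromosome 4 25% and 23.4%. CGATA was within 50 bp of 36.4% of members (31.7 to 41.3), against 16.2% (14.9 to 17.5) of other summits and 18.4% of all. Summits between divergent genes had CACTG at 26.2% (22.3 to 30.6) and CGATA at 30.5% (26.3 to 35). Those in the first 100 bp downstream had 27.7% (21.3 to 35.1) and 26.4% (20.2 to 33.8). The intervals of both classes overlap those of the members. Single-gene summits more than 100 bp and up to 500 bp upstream had CACTG at 19.2% and CGATA at 14%. Those over 500 bp away, 1850 of the other summits, had 24.3% and 12.7%.

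Counts around the summits differed between the regions. Farther out, both words were most or nearly most frequent at the summit itself. In the 20 bp step over the summit, CACTG occurred 13 times and CGATA 18.5 times per 100 summits. At 111 to 150 bp on the upstream side, the 2 steps had 5.46 and 3.36 for CACTG and 4.62 and 5.46 for CGATA. At 110 to 149 bp on the gene's side they had 3.36 and 4.62 for CACTG and 2.1 and 5.88 for CGATA. In the other region neither word was highest at the summit step. There, near a centromere or on chromosome 4, CGATA occurred 8.33 times per 100 summits at the summit and 18.8 times, its maximum, 50 to 69 bp towards the gene. CACTG occurred 4.17 times at the summit, 9.03 times 11 to 30 bp upstream of it and 7.64 times 50 to 69 bp towards the gene. Over the whole 50 bp on either side, set against the distances beyond 100 bp and up to 150 bp, CACTG had densities of 32.3 and 11.8 per 100 bp in 100 summits in this region, and 49.1 and 20.6 farther out. TATAAA farther out was frequent on the upstream side only, with 10.5 and 7.14 per 100 summits in the 2 steps farthest upstream, against 2.1 at the summit and 1.68 and 2.52 in the 2 steps farthest towards the gene. Of the occurrences of CACTG within 50 bp of the summits farther out, 63 read along the gene's strand and 55 against it. For CGATA the numbers were 91 and 92. Near a centromere or on chromosome 4 they were 17 and 30 for CACTG, the most uneven of these counts, and 38 and 42 for CGATA. A complete DRE holds CGATA on both strands and was counted on each, here and in the numbers per 100 summits. This evens the strand counts of CGATA. The DRE lay within 50 bp of 26 of 238 summits farther out and of 8 of 144 in the other region. Every member summit lies within 100 bp of a start, so nearness to the summit and nearness to the start cannot be told apart here.

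**Figure D5:**
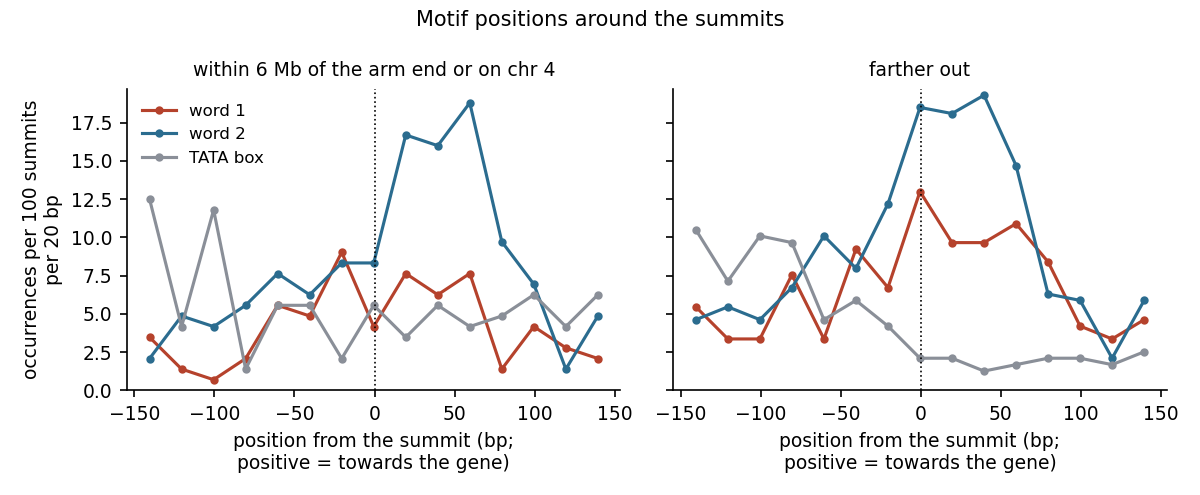
Occurrences of CACTG (word 1, red), CGATA (word 2, blue) and the TATA box (grey) per 100 summits in steps of 20 bp (vertical axis) by position from the summit in bp (horizontal axis, positive towards the gene), near a centromere or on chromosome 4 (left) and farther out (right). On the right CACTG is highest at the summit step, with 13 occurrences per 100 summits, and CGATA is high from the summit towards the gene. On the left CGATA is highest 50 to 69 bp towards the gene, at 18.8, and CACTG has no peak at the summit.

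Longer words, some of them around these cores, were also more frequent. TATCGA was found in 103 of 382 member windows (27%, 22.8 to 31.6), against 16.1% of genes with no summit. The word ACACTG was found in 59 windows (15.4%, 12.2 to 19.4) and in 6.89% of genes with no summit. ATGGAAC was in 22 (5.76%, 3.83 to 8.57) against 1.02% (0.856 to 1.22). Its share was 5.56% near a centromere or on chromosome 4 and 5.88% farther out. GGTATAA was in 14 of 144 members near a centromere or on chromosome 4 (9.72%, 5.88 to 15.7) against 1.13% of genes with no summit there, and in 4 of 238 farther out (1.68%) against 2.35%. Over all promoters the shares of these 4 words were 16.9%, 7.4%, 1.13% and 2.14%. They were picked from all words of their length for this difference, so the shares are a description. Member windows near a centromere or on chromosome 4 held 36.2% G and C, against 41.3% in genes with no summit there, and those farther out 43.9% against 41.4%. The part of base composition in these shares was not tested.

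Members with and without CACTG had overlapping signals. Farther out, 93 members with CACTG within 50 bp of the summit had quartiles of 75.2 and 136 and an interval of the median of 89.2 to 111. The 145 without it had quartiles of 74.3 and 168 and an interval of 90.7 to 118. Near a centromere or on chromosome 4 the medians were 412 (152 to 778) with and 515 (413 to 674) without it. The strongest member without CACTG was CG40045. The strongest with a DRE within 50 bp were eIF4B at 1021, PIP4K at 519 and Lamp1 at 410, and those with the E-box were CG3358 at 165, Tfb1, a TFIIH subunit gene, at 163 and Sur-8 at 147.

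Cytoplasmic ribosomal protein genes were the group with the most members. Of 86 such genes 25 had a member summit (29.1%, Wilson interval 20.5 to 39.4), against 2.69% of all protein-coding genes. In all, 58 of the 86 (67.4%) had a summit of any kind within 500 bp, against 13.7% of all protein-coding genes. Of the 25, 8 lay near a centromere or on chromosome 4 and 17 farther out, and their signals ran from 71.3 at RpL9 to 1223 at RpS3A with a median of 187. Their summits lay 4 to 97 bp upstream, with a median of 48 bp. After RpS3A, RpL15 stood at 1146 (505 in replicate 1, 648 in replicate 2), RpL38 1103 and RpL5 910. Farther out RpS27A had 621, RpS28b 245 and RpL27A 202. CACTG lay within 50 bp of 8 of the 25 summits.

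Other groups for growth and gene expression had smaller shares. Translation factor genes had 8 of 53 (15.1%, 7.85 to 27.1), led by eIF4B, eEF5 and eEF1alpha1 and including eEF1delta at 282 and eEF1gamma at 271. Respiratory chain and ATP synthase genes had 7 of 80 (8.75%, 4.3 to 17). The strongest were ND-AGGG, UQCR-11 and ND-49, with signals of 1322, 1195 and 692, and the weakest was ATPsynB with 52.4. Mitochondrial ribosomal protein genes had 3 of 73 (4.11%, 1.41 to 11.4), with 494 at mRpS5 and 68.8 and 67.1 at mRpL10 and mRpL4. Mediator genes had 3 of 29, with MED26 at 364 and MED1 at 82 beside MED21. Exosome and mRNA decay genes had 3 of 20, namely Not3 at 307, me31B at 268 and Rrp47 at 131. For these 5 groups the lower bounds of all but the mitochondrial ribosomal proteins lay above 2.69%. Summits of any kind within 500 bp, members included, were also more frequent in these groups than the 13.7% of all genes. Their shares were 35.8% for translation factors, 20% for the respiratory chain and ATP synthase and 21.9% for mitochondrial ribosomal proteins. Mediator genes had 37.9% and exosome and mRNA decay genes 25%.

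Genes of nuclear processes and other lists had 1 to 4 members each, to be read against the 2.69% of all genes. DNA repair genes had 4 of 38 (10.5%, 4.17 to 24.1), led by Rad23 at 692 and Parp1 at 383. Spliceosome genes had 3 of 34 (8.82%, 3.05 to 23), with Spf45 at 1107, Spf30 at 1056 and Sf3b3 at 86.3. Kinetochore and anaphase-promoting complex genes had 3 of 28 (10.7%, 3.71 to 27.2), namely Cdc27 at 227, BubR1 at 104 and Nuf2 at 90.3. For these 3 lists the lower bound lay above 2.69%. Their shares with a summit of any kind within 500 bp were 28.9%, 23.5% and 17.9%, against 13.7% of all genes. For the following lists the interval holds that value. Nuclear pore genes had 2 of 23 (8.7%), Mgtor at 376 and Nup107 at 92.7. Polycomb and trithorax group genes also had 2 of 23, pho at 165 and esc at 67.5. Cell cycle and replication genes had 2 of 39 (5.13%), CycD at 128 and dap at 55.3, and RNA polymerase subunit genes 2 of 30 (6.67%), Polr2F at 85.1 and Polr2E at 67.6. Insulator protein genes had 1 of 15, BEAF-32 at 111, and mitochondrial import genes 1 of 15, Tim23 at 512. The TFIID subunit genes had 1 of 14, Taf3 at 169. Chaperone genes had 1 of 33 (3.03%), Hsp83 at 243, with 165 in replicate 1 and 70.4 in replicate 2. Aminoacyl-tRNA synthetase genes had 1 of 35 (2.86%), beta-PheRS at 114. These last 2 shares are near that of all genes.

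Of the 29 gene lists, 10 had no member. Chemoreceptor genes had 0 of 180, which allows a share of up to 2.09% by the Wilson interval, and cuticle protein genes had 0 of 70 (up to 5.2%). The proteasome had 0 of 32, the vacuolar ATPase 0 of 29 and the COP and exocyst genes 0 of 29. Segmentation genes had 0 of 24, neural fate genes 0 of 16, Hox genes 0 of 8, Osiris genes 0 of 23 and serine protease genes 0 of 31. For all of these but the chemoreceptors the upper bound lies above the 2.69% of all genes, so a lower share was not detectable. The chemoreceptor, cuticle protein, Hox and Osiris genes had no summit of any kind within 500 bp. In the other lists without a member, that share ran from 3.23% of serine protease genes to 24.1% of vacuolar ATPase genes. Of the muscle genes, 1 of 20 had a member summit, Mef2, one of those found in neither replicate's thresholded list.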

How the data were processed

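Peak lists of 2 replicates and of both together were used. The build is dm6, per the labels, and sonicated fragments measured 200 to 800 bp. Names of the aligner and peak caller: not given in the sources used here. Each deposited list gives the authors' signal per peak, with no stated scale, and a summit offset. The ranked lists also give the −log10 of the global irreproducible discovery rate (IDR), as the authors deposited it, and 8 further columns without names, which were not used. Replicate lists came from 1 replicate's alignments and series-level lists from both, each with 1 further file that both replicates share and whose content is not named, per the deposited inventories.

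Summits were assigned to the nearest start of a protein-coding transcript of Ensembl release 115, whose transposable elements were also used. Of 3401 conservative peaks, 4 lay outside the 7 chromosomes. Sequences are from the RefSeq Release 6 assembly (dm6). All peak ends lay within its chromosomes. The windows given include none from arm 2R. Farther out on that arm, eEF5 had a signal of 715, above RpS27A and da. Mgtor (376) and Alg3 (344), with both words within 50 bp of the summit, exceeded Cdc27 and yps. Promoter windows ran from -100 to -1 of the member's start, or of the canonical transcript for other genes. A member's replicate signal is the highest among overlapping ranked peaks. Wilson and order-statistic intervals are at 95%. No test was made, since there is 1 group. Named genes are the strongest members of all, per arm, per gene list and per motif, those at the edges of the window, those with the most unequal replicates and the weakest. Genes with 2 member summits were named after their values were seen. The members, the 29 gene lists and 12 motifs were chosen with earlier results of these data known. Functions were tested on simulated data. Alternatives were other peak lists, thresholds, start definitions and windows. Tools were matplotlib 3.10.9, scipy 1.17.1, pandas 2.3.3 and numpy 2.4.6 under Python 3.11.15.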

Additional observations from a re-analysis of the deposited data

How the results depend on the processing

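Of 61 recomputed values, 48 stayed within the interval of the reported value, or within 1.5 times a count, and 13 did not. The number of members ran from 266 with peaks of above-median signal to 532 with an opposite-gene window of 200 bp. With replicate 1's list alone it was 368 and the median distance 50 bp, and with replicate 2's list alone 294 and 59 bp. The share in both replicate lists was 61.1% with the other series-level list, 61.3% with the 200 bp window, 91.7% with peaks of above-median signal and 90.8% with a global IDR of 0.001 or below. The last 2 select on signal or reproducibility. The median signal percentile, 73.4 as reported, was 63.7 with the 200 bp window, 87 with above-median peaks and 84.2 with the stricter IDR. CACTG at the summit was found at 19.4% with a motif window of 25 bp and 49.2% with 100 bp, since the windows differ in length.

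The boundary of the centromere-proximal region was chosen after seeing the data. The members' median signal inside it was 678 with 2 Mb and 388 with 8 Mb, and outside it 116 with 2 Mb and 114 with 4 Mb, against 505 and 99.8 as reported. No share of promoters with CACTG left its interval under the boundaries of 2, 4 and 8 Mb or without chromosome 4. No paired analysis was possible because there is 1 group. Depth is unknown, and the weakest peaks were the least often shared by the replicates.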
